A study of Capra hircus with 13 samples.

Results

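The comparison described here set 8-cell stage goat embryos injected with negative control (NC) siRNA against 8-cell stage embryos without treatment, using 5 of the 13 RNA-seq libraries of the series. The members were the 2 libraries labelled as NC siRNA and the 3 libraries labelled as untreated 8-cell embryos. The titles of the NC libraries call them WT, and their treatment label gives the NC siRNA. The NC embryos came from in vitro fertilized (IVF) zygotes whose cytoplasm was injected with 20 µM of the MISSION universal negative control, an siRNA designed to match no transcript, at 8 h after IVF, and they were collected as pools at 72 h. The untreated libraries of the series, those of oocytes and earlier embryos included, were taken over from 2 earlier studies of the authors. Which of these studies gave the untreated 8-cell libraries was not stated. Neither the time of collection nor the number of embryos behind each untreated 8-cell library was given in the sources used here. No breed, and beyond that title no genotype, was given for either group, and the culture text of the labels was the same for all samples. The NC and untreated libraries differed in injection, in the study they were made for and in the annotation used for quantification at once, so treatment and experiment cannot be told apart. All differences are therefore given as descriptions, with the spread between libraries and with no p-value. Nothing stated that the replicates were separate IVF batches, so the spread may be technical in part.

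The 8-cell stage is the time of zygotic genome activation (ZGA) in the goat, when the embryo starts to transcribe its own genes while the mRNAs stored in the oocyte are deadenylated and degraded. Transcripts loaded into the oocyte, such as those of the zona pellucida and the NLRP family, therefore decline through cleavage, and transcripts of early embryonic regulators appear. Injection adds a needle wound and a double-stranded RNA that loads into Argonaute proteins. Double-stranded RNA can also be met by cytosolic sensors and the interferon response in differentiated cells. A control siRNA group serves as the baseline for a knockdown, and the untreated embryos serve as the baseline for development.

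The values were FPKM (fragments scaled for exon length and for the mapped total of the library), made by the authors for each library. The 5 libraries were rescaled by their median ratio to the per-gene geometric mean, and levels are given as rescaled FPKM. The untreated table listed 21826 names once, that of NC listed 27121, and 21799 names were in both. These shared names carried 98.3 to 99.1% of the summed FPKM of the untreated libraries and 99.3 to 99.4% of that of the NC libraries. A difference is the mean log2(rescaled FPKM + 1) of NC minus that of the untreated libraries. It was read for the 11048 names whose mean over both groups reached 1 FPKM. A gene is called higher or lower in NC where the difference exceeded 1, a 2-fold change, and the NC libraries lay wholly above or wholly below the 3 untreated libraries. The untreated libraries held 27145986 to 30345379 fragments, recovered from the whole-fragment steps of their values. For NC, whose values were rounded to 2 decimals, the depth is unknown.

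The 3 untreated libraries were not alike. Across the 10045 of 18138 names in all tables whose mean over the 13 libraries reached 1 FPKM, Spearman's correlation was 0.96 between untreated replicates 2 and 3, 0.89 between replicates 1 and 3 and 0.84 between replicates 1 and 2. Replicate 1 was the lowest of the untreated libraries for 55.5% of the names, and replicate 2 the highest for 43.1%. The NC replicates had a correlation of 0.94 with each other.

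The NC libraries stood far from the untreated embryos of the same stage. The correlation between an NC and an untreated 8-cell library ran from 0.43 to 0.57 over the 6 pairs, with a mean of 0.50. Over all 18138 names, without that filter, the mean was 0.76. The untreated 8-cell libraries had a correlation of 0.82 to 0.95 with the 4-cell libraries and of 0.77 to 0.84 with the MII oocytes. The NC libraries lay about as far from 4-cell embryos (mean 0.49) and oocytes (mean 0.51) as from untreated 8-cell embryos. With the *YTHDF2* siRNA libraries, which were injected and sequenced in the same experiment, NC had a correlation of 0.82 to 0.90. For the untreated 8-cell libraries that value was 0.60 to 0.74. These correlations are across genes, which are not independent replicates.

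Of the 11048 names, 3458 (31.3%) were higher in NC and 2820 (25.5%) were lower. The median of the differences over all names was 0.02. The median size of a difference was 1.23 on the log2 scale, against a median SD between untreated replicates of 0.44 and a median difference between the NC replicates of 0.39. The NC and untreated libraries did not overlap for 7748 names (70.1%), and 2334 names overlapped and lay within 1.5-fold. The large differences were unequal in direction. A difference of over 16-fold was found for 546 names higher in NC and for 14 names lower in NC. The counts over 16-fold were taken under this scaling only. The counts of 3458 higher and 2820 lower names depend on the scaling. Equal summed FPKM gave 2703 higher and 3855 lower names with a median difference of -0.46. Quantile normalization gave 2948 and 3624 with a median of -0.33. Scaling on names of at least 10 FPKM gave 3823 and 2333 with a median of 0.22, so the higher share of the calls ran from 41.2 to 62.1% around 55.1%.

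**Figure D1:**
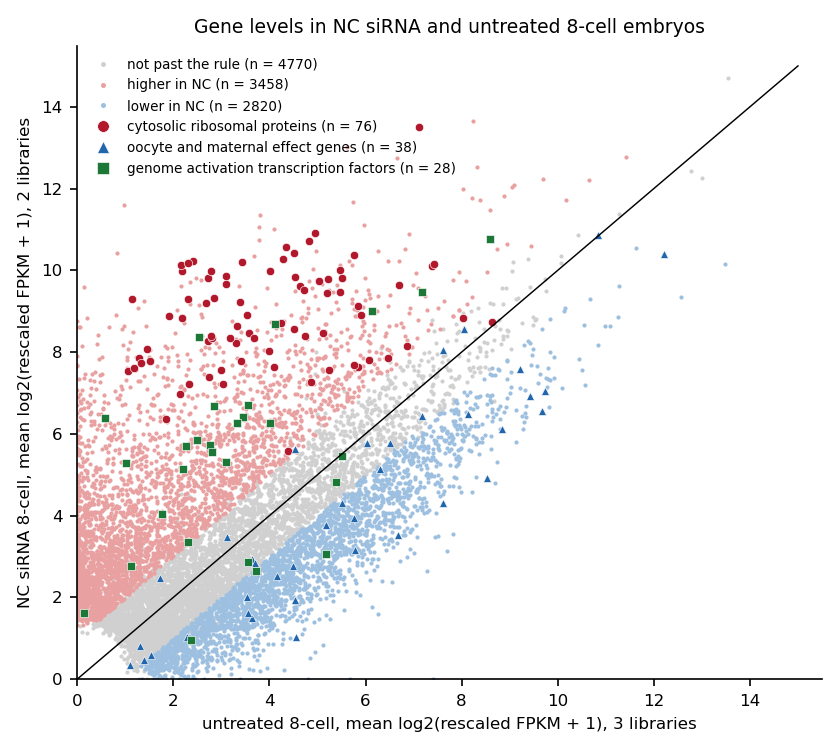
Each point is one of the 11048 names, with its mean log2(rescaled FPKM + 1) over the 3 untreated libraries on the x axis and over the 2 NC libraries on the y axis. Cytosolic ribosomal protein genes (red circles) lie above the line of equal levels, genome activation factors (green squares) mostly above it, and oocyte and maternal effect genes (blue triangles) mostly below it.

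The most abundant genes differed between the groups. Of the 100 most abundant names in each group, 26 were shared. *TMSB4X*, which encodes the actin-binding peptide thymosin beta-4, ranked first in both groups, with 6903, 19875 and 12614 in the untreated libraries and 19553 and 36633 in NC. The highest untreated level overlapped the lower NC level. Without NC replicate 1 or untreated replicate 2, the gene was higher in NC by 1.63 or 1.51. *PAIP1*, a partner of the poly(A)-binding protein in translation, ranked second in untreated embryos. It measured 6300, 16948 and 13780 there, against 1126 and 1137 in NC, a difference of -3.33. *CKS2*, a small subunit of cyclin-dependent kinase complexes, ranked second in NC with 8554 and 19194, against 179, 722 and 210 in untreated embryos. Its paralog *CKS1B* lay the other way, at 1786, 4168 and 4224 in untreated embryos and 1510 and 1455 in NC, a difference of -1.09. It was not past the rule without untreated replicate 2 (-0.90) or 3 (-0.95). *KPNA7*, an importin alpha of oocytes and early embryos, measured 2117, 1638 and 1772 in untreated embryos and 2012 and 1748 in NC, and the groups overlapped.

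The differences furthest from 0, 10.61 and -7.41, belonged to genes with a LOC number only. Among the 15 genes with a proper symbol and at least 10 FPKM that were furthest higher in NC, 6 encode ribosomal proteins and 3 encode proteins of mitochondrial membrane complexes. *RPS9*, a protein of the small ribosomal subunit, was at 0.94, 1.82 and 0.98 in the untreated libraries, which were 28, 36 and 23 fragments, and at 721 and 539 in NC. Its difference was the largest of these 15, at 8.14, with a pooled SD of 0.30 between replicates. *ATP5E*, a subunit of ATP synthase, measured 0.97, 3.13 and 0.70 against 583 and 505. *SNRPB*, a core protein of spliceosomal snRNPs, measured 0.56, 3.52 and 0.55 against 292 and 440. In each of these genes untreated replicate 2 was the highest of the untreated libraries, and it remained far below NC. *TMSB10*, the paralog of *TMSB4X*, measured 24.2, 177 and 25.1 in untreated embryos and 6800 and 10222 in NC. *MED31*, a Mediator subunit, *GLRX2*, a mitochondrial glutaredoxin, *ATP6V1E1*, a subunit of the vacuolar proton pump, and *TOMM5*, of the mitochondrial import pore, were also in this group, with differences of 7.64, 7.34, 7.34 and 7.88. *BECN2* measured 5.47, 49.7 and 7.28 in untreated embryos and 2095 and 3281 in NC.

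The 15 such genes furthest lower in NC included signalling and transcription regulators. *CCNYL1*, a cyclin Y-like protein that works with membrane-bound kinases, measured 114, 181 and 176 in untreated embryos and 6.28 and 4.38 in NC, a difference of -4.63 with a pooled SD of 0.35. *CBFB*, the common partner of RUNX transcription factors, measured 171, 250 and 261 against 23.0 and 4.73. *DYRK1A*, a protein kinase, measured 42.6, 114 and 104 against 3.60 and 5.13. The NC libraries lay below all untreated libraries in each of the 15. *RYK*, a Wnt receptor, and *AVEN*, an inhibitor of apoptosis, differed by -3.88 and -3.73. *PLA2G12B* and *C20H5orf58* were listed at 0 in both NC libraries, and no fold is given for them. They measured 22.9, 79.5 and 68.3, and 14.95, 41.0 and 31.3, in the untreated libraries. The annotations of the tables differed in size, and whether a name covered the same exons in both could not be tested.

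**Figure D2:**
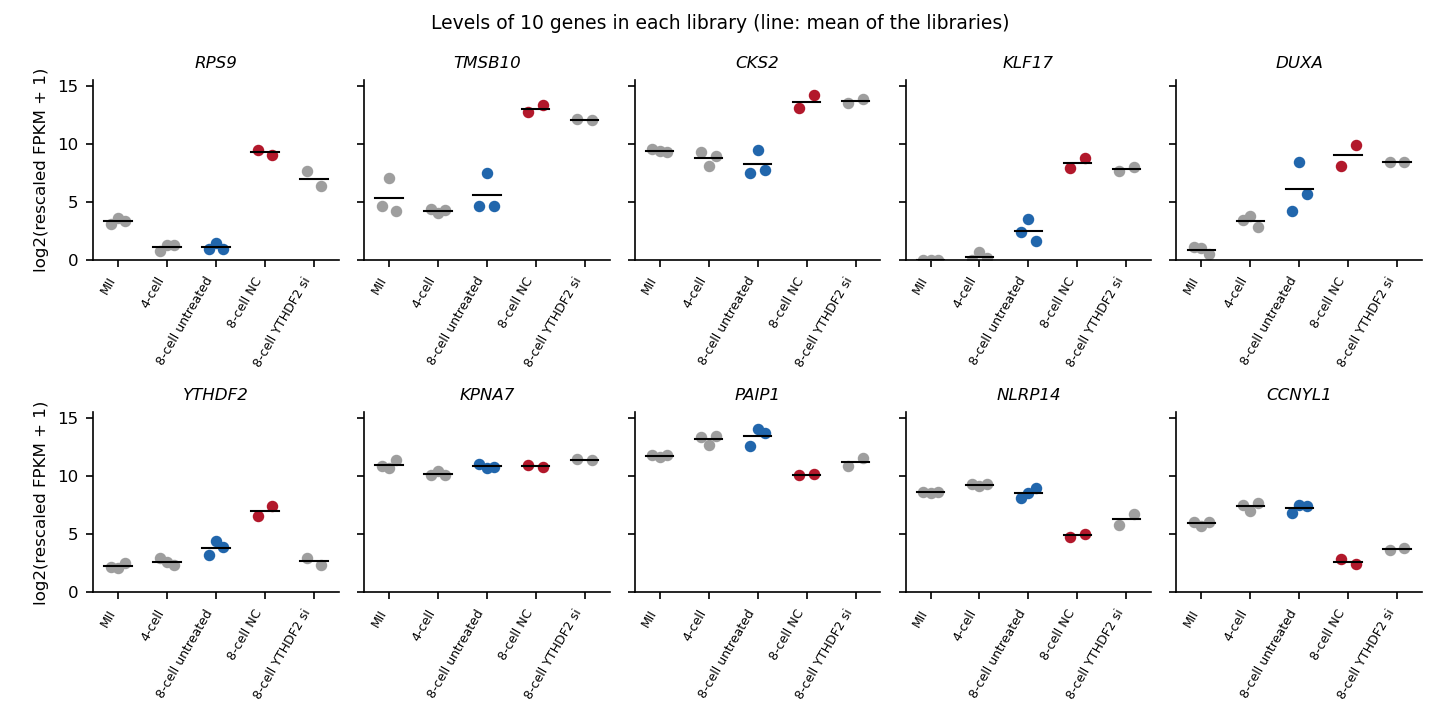
Levels of 10 genes as log2(rescaled FPKM + 1) in each library of 5 groups, with untreated 8-cell libraries in blue, NC libraries in red, the other groups in grey and a line at the mean of each group. *RPS9* and *TMSB10* are higher in NC than in all untreated libraries, *DUXA* overlaps through untreated replicate 2, *KPNA7* is level, and *NLRP14* and *CCNYL1* are lower in NC.

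Cytosolic ribosomal protein genes were higher in NC with few exceptions. Of the 76 cytosolic ribosomal protein genes measured, 74 (97.4%) were higher in NC and none was lower, against 31.3 and 25.5% of all names, with a median difference of 4.90. Their summed level was 1756, 4444 and 2550 in the untreated libraries and 47364 and 68162 in NC. The median gene had a log2 level of 3.33, 4.66 and 3.47 in the untreated libraries and of 8.71 and 9.05 in NC. The exceptions were *RPLP0*, a protein of the ribosomal stalk, and *RPSA*, of the small subunit. *RPLP0* measured 276, 476 and 481 in untreated embryos and 479 and 382 in NC, and the groups overlapped. *RPSA* measured 181, 394 and 247 against 402 and 524, a difference of 0.81. The smallest differences past the rule were those of *RPL3* (1.199), *RPL4* (1.29) and *RPS3* (1.38). *RPL3* was not past it without NC replicate 1 (0.74) or untreated replicate 2 (0.93), nor *RPS3* without untreated replicate 1 (0.97), and *RPS3* turned to -0.080 with the trend on gene length removed. *RPSA* passed it without either NC replicate 1 (1.03) or untreated replicate 2 (1.10). *FAU*, which encodes a ubiquitin-like protein fused to ribosomal protein S30, differed by 6.41. Ribosomal protein genes have many near-identical copies in mammalian genomes, and the authors kept uniquely mapped reads only, so the level of each is uncertain. The part of this in the difference was not tested.

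Ribosome biogenesis factors, translation factors and mitochondrial ribosomal proteins had more higher than lower members. These lists were added after the values of single genes had been seen. Of 50 ribosome biogenesis factors, 31 (62%) were higher, 2 lower and 17 not past the rule, with a median of 1.97, against 31.3% higher and 25.5% lower over all names. *FBL*, the methyltransferase of box C/D snoRNPs, measured 1.91, 2.80 and 2.21 in untreated embryos and 73.6 and 124 in NC. *NOP10*, of H/ACA snoRNPs, measured 5.89, 32.6 and 14.8 against 427 and 1325. *NMD3*, an export adaptor of the large subunit, was lower, at 190, 432 and 383 against 49.4 and 57.3. Of 47 translation factors, 28 (59.6%) were higher, 3 lower and 16 not past the rule, with a median of 1.58. Subunits of eIF3, which prepares the small subunit for initiation, covered a wide range. *EIF3F* measured 2.30, 1.69 and 0.61 against 85.9 and 73.1, whereas *EIF3M* was lower in NC, at 281, 588 and 514 against 163 and 216. *EIF4E*, the cap-binding protein, overlapped between the groups. Without untreated replicate 1, 5 translation factors were lower. Of 76 mitochondrial ribosomal proteins, 47 (61.8%) were higher, 2 lower and 27 not past the rule, with a median of 1.75. With the trend on gene length removed the median was 0.63. The lower ones were *MRPS36* (-3.91) and *MRPL19* (-2.38). Without NC replicate 2 or without untreated replicate 1, 5 were lower, and without untreated replicate 2, 4 were.

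Genes of energy supply, protein turnover and splicing also had more higher than lower members. Of the 56 nuclear-encoded oxidative phosphorylation subunits measured, 38 (67.9%) were higher and 6 (10.7%) lower, against 31.3 and 25.5% of all names, with a median of 2.23. The median was 1.36 with the trend on gene length removed. *NDUFA4* measured 1.58, 14.7 and 2.32 in untreated embryos and 622 and 1138 in NC. The lower ones were *NDUFS1*, *NDUFV2*, *NDUFV3* and *NDUFB10* of complex I, *ATP5C1* of ATP synthase and *SDHC* of complex II, which was not past the rule without NC replicate 2 (-0.77). *ATP5C1* measured 156, 276 and 259 against 71.6 and 48.0. Of 31 proteasome subunits, 19 (61.3%) were higher and 1 lower, with a median of 1.84. The core subunits *PSMB1* (6.15), *PSMB3* (5.74) and *PSMB6* (5.72) had the largest differences, and the regulatory subunits *PSMD1* (-0.16), *PSMD2* (0.18) and *PSMD11* (-0.20) overlapped between groups. *PSMD12* was lower, at 71.9, 84.7 and 108 against 28.6 and 26.3. Of 45 splicing factors, 32 (71.1%) were higher and 1 lower, with a median of 1.68. *SNRPD1*, a core snRNP protein, measured 64.7, 188 and 114 against 1065 and 2018, and *SRSF3*, a splicing regulator, 74.5, 302 and 99.6 against 978 and 989. *SNRNP40*, a protein of the U5 particle, was the one lower in NC, at 94.2, 166 and 161 against 45.5 and 56.0.

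**Figure D3:**
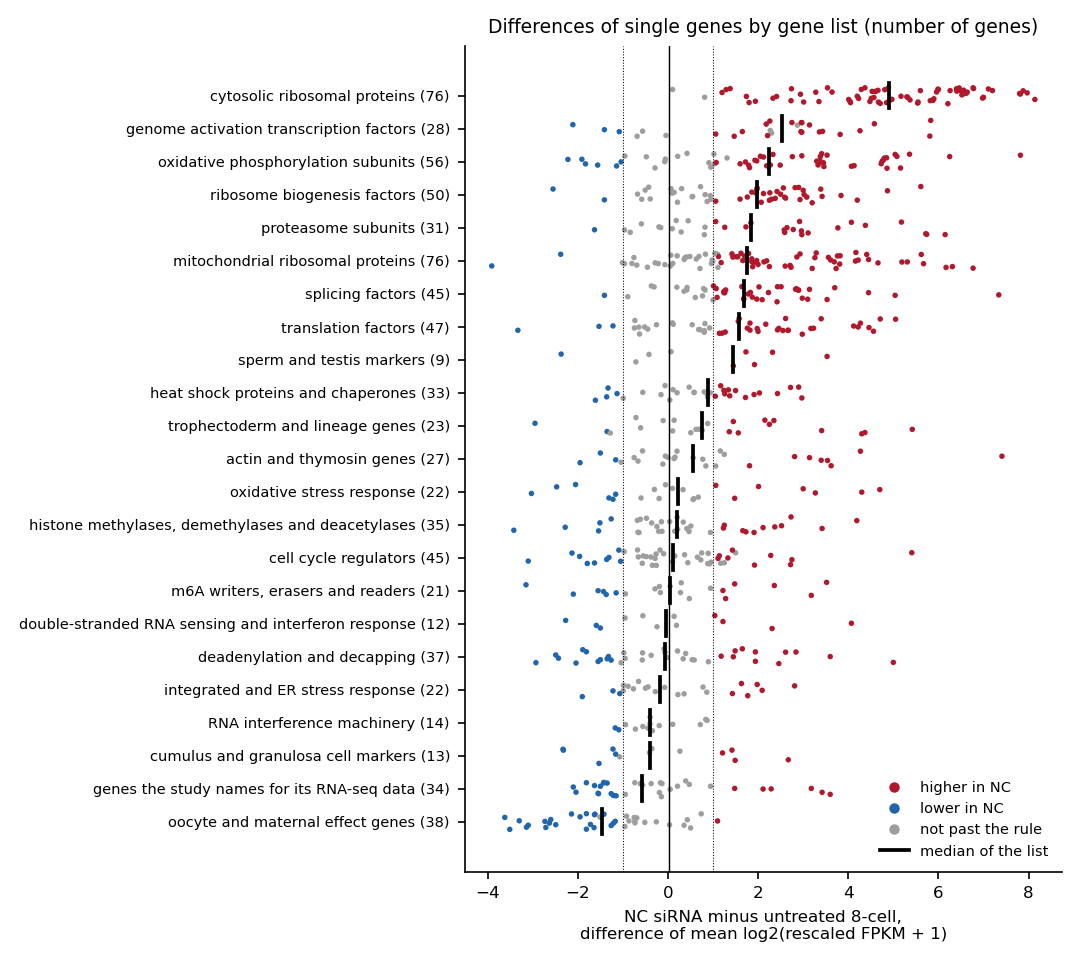
Difference of mean log2(rescaled FPKM + 1), NC minus untreated, for each gene of 23 lists, coloured by call and with a black bar at the list median. Dotted lines mark differences of 1 and -1. Ribosomal proteins have the highest median (4.90) and oocyte and maternal effect genes the lowest (-1.46).

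Transcription factors of genome activation were mostly higher in NC. Of 28 measured, 19 (67.9%) were higher and 3 (10.7%) lower, against 31.3 and 25.5% of all names, with a median of 2.53. *KLF17* measured 4.32, 10.6 and 2.18 in untreated embryos and 248 and 434 in NC, a difference of 5.83. *SOX15* measured 1.27, 0.35 and 0.08 against 58.2 and 118. *OTX2*, a homeobox gene, measured 10.4, 37.5 and 10.7 against 328 and 519. *MYCN* (4.26), *KLF4* (3.82), *PRDM14* (3.43), *DPPA2* (3.36) and *TFAP2C* (3.14) were also higher, and *KLF6*, *MYCL* and *NFYC* were lower. The PRD-like homeobox genes of early embryos, *ARGFX*, *DUXA* and *LEUTX*, were high in untreated replicate 2. *DUXA* measured 17.9, 355 and 51.2 in untreated embryos and 277 and 954 in NC, so the groups overlapped through that library alone. *ARGFX* measured 41.4, 593 and 117 against 437 and 1148. Both were higher in NC without untreated replicate 2 (4.03 and 3.32) or without NC replicate 1 (3.78 and 3.02). *LEUTX* was higher in NC, at 198, 688 and 413 against 1720 and 1760. *DPPA4* measured 4.04, 147 and 4.51 against 44.2 and 132, and was higher without untreated replicate 2 (3.88). *NFYC* was not past the rule without NC replicate 2 (-0.92) or untreated replicate 1 (-0.51). Without untreated replicate 2, 22 of the list were higher and 4 lower, with a median of 3.10. *POU5F1*, the pluripotency factor OCT4, measured 27.3, 6.29 and 6.83 against 6.24 and 6.35, and was lower in NC without untreated replicate 2 or 3 (-1.04 each). In the *YTHDF2* siRNA libraries the mean level of *KLF17* was 230, that of *OTX2* 143 and that of *DUXA* 347.

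The oocyte and 4-cell libraries placed these levels among the stages. The NC libraries lay above all 9 untreated libraries, those of oocytes and 4-cell embryos included, for 18 of the 27 factors that the oocyte table lists, against 29% of all 10440 such names. The group means ran upward from MII oocytes through 4-cell and untreated 8-cell embryos to NC for 14 of the 27, against 10% of all names. For ribosomal proteins the NC libraries were above all 9 for 69 of 75, but the upward order held for 4. Their median log2 level was 4.64 to 5.76 in oocytes, 3.90 to 4.53 in 4-cell embryos, and 7.84 and 7.64 in the *YTHDF2* siRNA libraries. Levels in the other stages were put on the same scale across tables that were normalized apart.

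**Figure D4:**
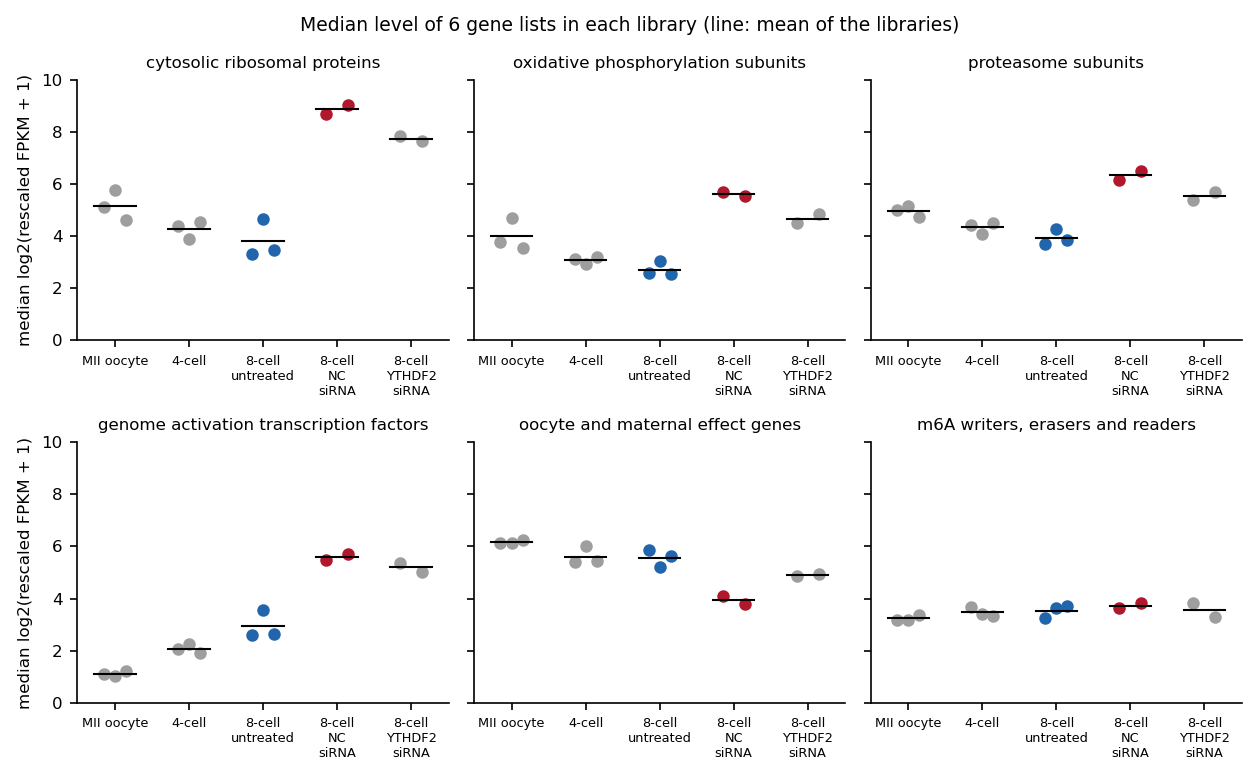
Median log2(rescaled FPKM + 1) over the genes of 6 lists in each of the 13 libraries, with untreated 8-cell libraries in blue, NC libraries in red and a line at the mean of each group. Genome activation factors have a higher group mean at each step from oocytes to NC, and ribosomal proteins range from 3.33 to 4.66 in untreated 8-cell embryos and reach 8.71 and 9.05 in NC.

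Lineage genes that mark the first cell types of the blastocyst were in part higher. Of 34 in both tables, 23 passed the filter on low values, 10 (43.5%) were higher and 2 (8.70%) lower, against 31.3 and 25.5% of all names. Their median was 0.76 and ran from 0.29 under equal summed FPKM to 2.15 under the filter of at least 10 FPKM. *KRT8*, a keratin of early epithelia, measured 0.56, 2.51 and 0.04 in untreated embryos and 56.6 and 101 in NC. Its partner *KRT18* was listed at 0 in all untreated libraries and measured 2.43 and 5.62 in NC. *KRT18* therefore passed the filter through NC alone, and the count of higher members includes it. *HAND1* (4.37) and *GATA6* (4.30), regulators of trophoblast and primitive endoderm, and *ATP1B1* (3.41), a subunit of the sodium pump, were higher as well. *YAP1*, the Hippo pathway coactivator, was lower, at 22.4, 47.2 and 44.6 against 1.99 and 6.78. *CDX2*, *SOX17* and *ELF5* did not pass the filter.

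Oocyte and maternal effect genes were mostly lower in NC. Of 38 measured, 22 (57.9%) were lower and 1 (2.63%) was higher, against 25.5% lower and 31.3% higher over all names, with a median of -1.46. *NLRP14*, of the maternal NLRP family, measured 274, 369 and 493 in untreated embryos and 26.0 and 32.5 in NC, a difference of -3.62. *NLRP9* (-3.30), *NLRP13* (-3.51) and *NLRP2* (-2.63) were lower too. *GDF9*, a growth factor secreted by oocytes, measured 354, 607 and 449 against 70.6 and 65.8, and *BMP15*, its partner, 707, 566 and 511 against 214 and 170. *ZP2*, of the zona pellucida, measured 556, 1080 and 1046 against 126 and 135. *FBXO43*, an inhibitor of the anaphase-promoting complex in oocytes, measured 58.2, 117 and 152 against 8.64 and 13.0. *WEE2*, the oocyte kinase that restrains the resumption of meiosis, measured 1383, 570 and 686 against 123 and 71.7. In these genes the NC libraries lay below every untreated library. *DNMT1* (0.43), *ACCSL* (0.50), *CCNB3* (-0.26) and *MOS* (-0.73) did not pass the rule, and *KHDC3L*, of the subcortical maternal complex, was higher (1.10), though not without NC replicate 1 (0.98) or untreated replicate 1 (0.85). *MOS* was lower without NC replicate 1 or untreated replicate 2 (-1.23 each). The NC libraries lay below all 9 untreated libraries for 24 of the 38, against 26.1% of all names. The downward order from oocytes to NC held for 5, against 6.5%. The mean level of *NLRP14* was 82.3 in the *YTHDF2* siRNA libraries, and its mean was 390 in oocytes. Fewer transcripts per embryo and a smaller share of the total RNA cannot be told apart in these values.

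Genes that changed between oocytes and 4-cell embryos gave a comparison chosen on libraries outside the NC comparison. The names that could be chosen were the 8322 that passed the filter in both comparisons, of which 22.1% were higher and 31.7% lower in NC, with a median of -0.39. Of 906 names that were at least 2-fold higher at the 4-cell stage than in MII oocytes with no overlap, 458 (50.6%) were lower in NC and 139 (15.3%) higher, with a median of -1.05. Of 855 names that were lower at the 4-cell stage, 410 (48.0%) were higher in NC and 70 (8.19%) lower, with a median of 0.95. The 4-cell and untreated 8-cell libraries came from tables with the same 21826 names and the oocytes from one with 18858, so the choice of these genes can carry differences between tables, and that part was not tested. The 6561 names in neither group were higher for 19.7% and lower for 32.2%, with a median of -0.43. With a 4-fold limit the second group had 163 names, of which 131 were higher and 6 lower in NC, with a median of 3.40. The first group had 128 names then, of which 25 were higher and 56 lower, with a median of -0.60.

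Of 37 deadenylation and decapping genes, 11 (29.7%) were higher and 11 (29.7%) lower, with a median of -0.07, near the 31.3 and 25.5% of all names. *CNOT6L*, a catalytic subunit of the CCR4-NOT complex that shortens poly(A) tails, measured 34.0, 68.5 and 77.2 in untreated embryos and 12.1 and 13.9 in NC. *CNOT7*, another catalytic subunit, measured 195, 414 and 370 against 94.9 and 117. *BTG4*, the maternal adaptor of that complex, measured 2661, 6047 and 6706 against 1558 and 1185. *PAN3* (-2.49), *PARN* (-1.89), *CNOT6* (-1.35), *CNOT8* (-1.26) and *CNOT10* (-1.50) were also lower, whereas the scaffold *CNOT1* (0.21) overlapped. *CNOT8* was not past the rule without NC replicate 1 (-0.92). *DCP2*, the decapping enzyme, measured 4.56, 11.1 and 5.86 against 61.8 and 139. *EDC3* (2.46), *DDX6* (1.45) and *PATL1* (1.94), which help decapping, were higher. The LSM ring that binds shortened tails split, with *LSM7* (5.00), *LSM5* (2.61), *LSM3* (1.94) and *LSM6* (1.18) higher and *LSM1* (-2.93) and *LSM2* (-1.32) lower. *LSM6* was not past the rule without untreated replicate 1 (0.87), and turned to -0.45 with the trend on gene length removed.

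The m6A machinery had shares near those of all names. The mark m6A, or N6-methyladenosine, is a methyl group on adenosines inside mRNA. Cells have enzymes that add it, enzymes that take it off and proteins that bind it, and binding by YTHDF2 brings deadenylases to the transcript. Of 21 genes, 6 (28.6%) were higher and 6 (28.6%) lower, against 31.3 and 25.5% of all names, with a median of 0.05. *YTHDF2*, the gene targeted in the other siRNA group, measured 8.44, 20.0 and 13.9 in untreated embryos and 94.9 and 175 in NC, so it was 9.56-fold higher in NC by group means. Its mean level was 3.82 in oocytes, 5.39 in 4-cell embryos and 5.61 after *YTHDF2* siRNA. The knockdown level therefore lay below all untreated 8-cell libraries, and the NC level lay above them. *YTHDF3* measured 11.1, 17.3 and 14.2 against 25.2 and 65.6, and was not past the rule without NC replicate 2 (0.85). *YTHDF1* was lower, at 6.14, 8.33 and 11.0 against 2.38 and 2.52. *METTL3* (0.05), *METTL16* (0.29), *ZC3H13* (-0.17) and *FTO* (-0.19) overlapped between the groups, and *METTL14* was lower (-1.15), though not without NC replicate 1 (-0.66). *ALKBH5* measured 53.4, 18.4 and 33.6 against 6.55 and 6.91. The IGF2BP readers, which stabilize mRNAs, went both ways. *IGF2BP3* measured 866, 439 and 612 in untreated embryos and 71.1 and 66.0 in NC, while *IGF2BP1* measured 0.21, 0.12 and 0.66 against 14.9 and 13.2.

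Of the 35 genes that the study names for its RNA-seq data, 34 passed the filter, 6 (17.6%) were higher and 13 (38.2%) lower, against 31.3 and 25.5% of all names, with a median of -0.58. These genes were picked by the study on libraries of this series, so they are no independent sample. *DNMT3A*, a de novo DNA methyltransferase, measured 23.4, 11.7 and 17.1 in untreated embryos and 4.21 and 5.35 in NC. *UHRF1*, which guides maintenance methylation, measured 130, 25.0 and 44.9 against 16.01 and 12.9. *KDM5B*, a demethylase of H3K4, was higher, at 0.73, 0.59 and 0.94 against 14.1 and 22.4. *HDAC1* was higher by 2.12, and *KDM1A* (-0.14), *HDAC3* (-0.61) and *CNOT2* (-0.56) did not pass the rule. In the wider list of 35 histone methylases, demethylases and deacetylases that passed the filter, 11 (31.4%) were higher and 5 (14.3%) lower, with a median of 0.20. *EZH2*, the methyltransferase of the Polycomb complex, was the highest at 4.19, and its partner *SUZ12* was lower at -1.51. *SUV39H2*, a methyltransferase of H3K9, measured 186, 276 and 312 against 22.6 and 22.8.

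Of the 39 double-stranded RNA sensing and interferon response genes in both tables, 12 passed the filter, and the other 27 reached at most 2.93 in an untreated and 1.18 in an NC library. Of the 12, 4 (33.3%) were higher and 3 (25%) lower, near the 31.3 and 25.5% of all names, with a median of -0.05. *IFI6* measured 0, 0 and 0.35 in untreated embryos and 7.52 and 39.6 in NC, and it was listed at 0 in both *YTHDF2* siRNA libraries. *IRF1* measured 1.30, 0.69 and 0.11 against 7.95 and 6.28. *IFIT5* was lower, at 12.7, 30.4 and 28.4 against 3.48 and 4.22, and so were *DDX58*, the sensor RIG-I (-1.50), and *TLR3*, the endosomal sensor (-1.59). Without NC replicate 2, 2 of the list were higher. *ISG15*, *RSAD2*, *IFIH1* and *EIF2AK2*, the classical responders and sensors, did not pass the filter. Of 14 genes of the RNA interference machinery, none was higher and 2 (14.3%) were lower, with a median of -0.40. *AGO2*, the slicing Argonaute, measured 9.06, 8.08 and 9.63 against 7.50 and 5.66. *AGO1* (-1.09) and *XPO5* (-1.18), the exporter of microRNA precursors, were the lower ones, and *AGO1* was not past the rule without NC replicate 2 (-0.81).

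Stress genes were mixed, with some clear single members. Of 22 genes of the integrated and endoplasmic reticulum stress response, 6 (27.3%) were higher and 3 (13.6%) lower, against 31.3 and 25.5% of all names. Their median was -0.18 and ran from -0.61 to 0.78 over the alternative settings. *ATF3*, a transcription factor induced by stress, measured 6.35, 9.94 and 4.66 in untreated embryos and 50.6 and 55.3 in NC. *DDIT3*, which encodes CHOP, measured 117, 392 and 165 against 616 and 605. *CALR* (2.095), *TRIB3* (1.98), *HERPUD1* (1.77) and *EIF2AK3* (1.43) were higher, and *EIF2AK1* (-1.90), *PDIA4* (-1.22) and *XBP1* (-1.07) lower. *ATF4* measured 153, 142 and 147 against 275 and 233, under the 2-fold limit. *PDIA4* was not past the rule without NC replicate 2 (-0.77), nor *XBP1* without untreated replicate 1 (-0.52). Without untreated replicate 2, 5 of this list were lower. Of 17 genes of the DNA damage response, 6 (35.3%) were higher and 7 (41.2%) lower. *CDKN1A*, the cyclin-dependent kinase inhibitor p21, measured 0.25, 0.15 and 0.15 against 17.7 and 23.6, a difference of 4.18, and *PMAIP1*, the apoptosis inducer NOXA, 63.6, 185 and 150 against 604 and 482. *GADD45A* was higher (1.79), whereas *MDM2* (-1.37), *RRM2B* (-2.61), *SESN1* (-1.91), *CCNG1* (-1.64) and *ZMAT3* (-2.97) were lower. Of 22 oxidative stress genes, 7 (31.8%) were higher and 6 (27.3%) lower, near the shares of all names. *SOD1*, the cytosolic superoxide dismutase, measured 17.0, 65.9 and 20.0 against 1162 and 500, and *NQO1*, a quinone reductase, 148, 284 and 186 against 23.8 and 23.1. Ferritin heavy chain *FTH1* was higher (3.00), and the light chain *FTL* (0.10) was not. Of 33 heat shock proteins and chaperones, 14 (42.4%) were higher and 4 (12.1%) lower, with a median of 0.88 that ran from 0.36 to 1.10 over the alternative settings. *HSPA8*, the constitutive HSP70, measured 149, 384 and 253 against 992 and 999, and *DNAJB1*, its inducible cochaperone, 79.0, 13.4 and 12.7 against 206 and 169. *HSPA5*, the chaperone of the endoplasmic reticulum, overlapped at 49.0, 144 and 64.9 against 114 and 118, and was higher without untreated replicate 2 (1.02).

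Cell cycle and cytoskeleton genes included large single differences. Of 45 cell cycle regulators, 9 (20%) were higher and 9 (20%) lower, against 31.3 and 25.5% of all names, with a median of 0.10, and without NC replicate 2 the higher ones were 14. *CCNE1* (2.75) and *CCNA2* (2.28), cyclins of the S phase, and *AURKB* (2.72), of the chromosomal passenger complex, were higher. *AURKA* measured 1277, 1023 and 938 in untreated embryos and 1257 and 1050 in NC. *BUB1B* (-2.13), of the spindle checkpoint, *CDC6* (-1.96), *ORC2* (-1.63) and the helicase subunits *MCM3* (-1.31), *MCM4* (-1.79) and *MCM6* (-1.05) were lower, and *ORC1* (1.92) was higher. *MCM6* was not past the rule without NC replicate 2 (-0.89) or untreated replicate 2 (-0.94) or 3 (-0.95). Of 27 actin and thymosin genes, 8 (29.6%) were higher and 3 (11.1%) lower. *ACTB*, beta-actin, measured 11.0, 7.45 and 2.79 against 198 and 98.3, whereas *ACTG1*, gamma-actin, measured 141, 156 and 161 against 142 and 64.3, and was lower without NC replicate 1 (-1.21). *PFN1* (3.62), which feeds actin monomers into filaments, *EZR* (3.40), which ties filaments to the membrane, and *TPM3* (2.81) were higher.

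Markers of other cells that can stay on embryos were present in both groups in part. Of 24 cumulus and granulosa cell markers in both tables, 13 passed the filter, and the summed level of the 24 was 217 to 288 in the untreated libraries and 135 to 143 in NC. The median log2 level of the 13 was 2.85, 3.86 and 3.95 in the untreated libraries and 2.74 and 3.36 in NC, against 2.65, 2.72 and 2.64, and 2.85 and 2.96, over all names. *FSHR*, *AMH* and *INHBA* were at most 0.32 in any library, and *INHA* was listed at 0 in all 5. Of the 13, 4 (30.8%) were higher and 5 (38.5%) lower, against 31.3 and 25.5% of all names. *STAR* (-1.53), *DCN* (-2.34), *LUM* (-2.32), *HAS2* (-1.22) and *CYP19A1* (-1.16) were lower in NC, and *VIM* (2.67), *CD44* (1.49), *TIMP1* (1.42) and *COL1A2* (1.21) higher. Without NC replicate 1, *HAS2* was not past the rule (-0.997) and *TIMP1* was under the filter on low values. *COL1A2* was not past the rule without NC replicate 2 (0.85) or untreated replicate 1 (0.99). Of 27 sperm and testis markers, 9 passed, of which 5 were higher and 1 lower, with differences from -2.37 to 3.53. The median of the 9 was 1.45 and turned to -0.71 under the filter of at least 10 FPKM. Their median log2 level was 0.54, 0.83 and 0.82 in the untreated libraries and 2.24 in each NC library. Markers near 0 in untreated embryos passed through NC alone, so their higher calls were in part set by the filter. The summed level of the 27 was 34.7 to 87.0 in untreated embryos and 49.7 and 67.4 in NC. *TNP2*, of spermatid chromatin, measured 0.09, 0 and 0.06 against 9.41 and 13.1, and *ACR* and *SMCP* were listed at 0 throughout. The 13 blood and immune markers summed to 1.33 to 3.60 in untreated embryos and to 6.89 and 11.4 in NC, and 2 of them passed the filter. Immune genes outside the list, named after their values were seen, were also higher in NC. *AIF1*, of macrophages, was listed at 0 in the untreated libraries and measured 4.42 and 14.4 in NC. *CTSS*, a lysosomal protease, measured 0, 0.20 and 0 against 5.005 and 16.5, and *CD74*, the invariant chain of antigen presentation, was listed at 0 against 1.92 and 6.997. *CD53*, a leukocyte tetraspanin, measured 0, 0.25 and 0.069 against 1.32 and 9.23, and was under the filter on low values without NC replicate 2. Their part in the differences was not tested.

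Gene length moved with the difference. The exon length of the annotation behind the untreated table could be recovered for 10990 of the names. The median length was 1699 bases for names higher in NC, 3147.5 for names lower in NC and 2598 for all. Among the names of the shortest of 10 length bins (66 to 871 bases) the median difference was 1.83, and 62.2% of the names were higher and 14.8% lower in NC. Among those of the longest bin (6433 to 59473 bases) the median was -0.49, and 13.7% were higher and 32.03% lower. The shortest bin without the 54 ribosomal proteins in it had a median of 1.71, with 60.2% higher. Spearman's correlation between length and difference was -0.31 across names. With the smoothed trend on length removed, 2996 names were higher and 2505 lower, and the median of the ribosomal proteins was 3.36. Lists with a median above 1 were then 8, against 10. The part of length in the differences was not tested beyond this.

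**Figure D5:**
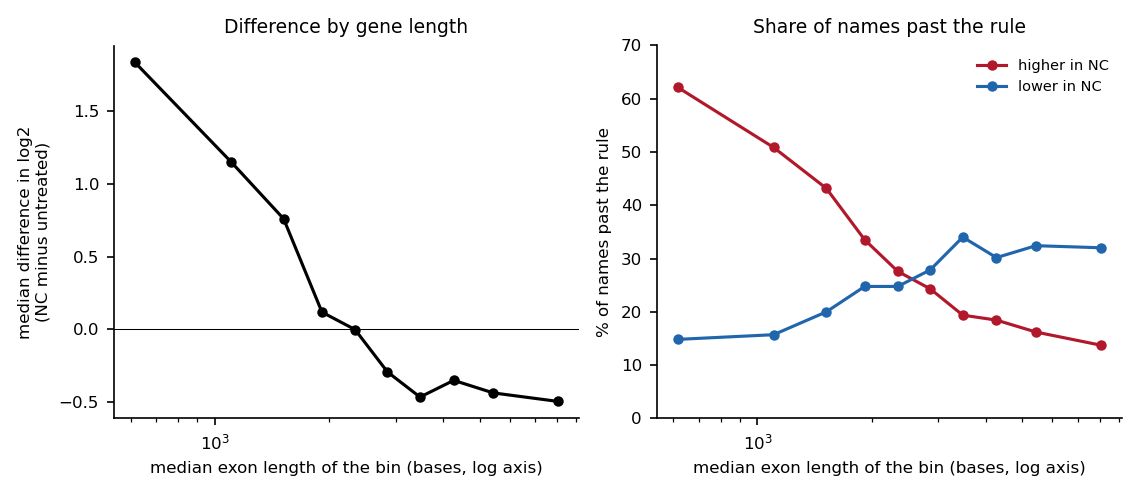
The 10990 names with a length are split into 10 bins by exon length, shown at their median length in bases on a log axis. The median difference in log2 (left) is 1.83 in the shortest bin and below 0 from the middle of the range on, and the share of names past the rule (right) goes from 62.2 to 13.7% for higher and from 14.8 to 32.03% for lower.

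The order of the untreated replicates also moved with the calls. Among the 3458 names higher in NC, untreated replicate 2 was the untreated library nearest to NC for 53.9%, against 43.1% over all names. Among the 2820 lower names, replicate 1 was the lowest untreated library for 72.0%, against 55.5%. NC replicate 2 lay above NC replicate 1 for 2517 of the 3458 higher names, against 6338 of all 11048. Leaving out one library at a time gave 3399 to 3811 higher and 2807 to 3146 lower names.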

How the data were processed

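Goat Smart-seq2 libraries of oocytes and embryos were used, 2 with NC siRNA and 3 untreated at the 8-cell stage, and 8 others for context. The authors used HISAT2 against the ARS1 genome, retained reads with a unique position, assigned them to genes by HTSeq and deposited FPKM per library in 5 tables, made apart for the experiments and rounded to 2 decimals for the injected embryos. The 4-cell and 8-cell untreated tables had 43 names listed more than once and those of injected embryos 8, and all of these were left out. Libraries were rescaled by median ratio over 13232 names above 0 in all 5, and compared on log2(value + 1) with Python 3.11.15, numpy 2.4.6, pandas 2.3.3, scipy 1.17.1 and statsmodels 0.14.6. The oocyte, 4-cell and *YTHDF2* siRNA libraries were put on the same scale by their median ratio to the same per-gene means. Totals of the untreated libraries and exon lengths came from whole-fragment steps of their FPKM. Symbols matched a RefSeq table of a later release for 99.9% of kept names, and no coordinates were used. Every named gene is a member of 1 of 25 lists, a gene the study names, or 1 of the 15 furthest in each direction (at least 10 FPKM, no LOC number), apart from 4 immune genes, and some such genes are not reported here. Members and lists were chosen with earlier results of these data known, and 3 lists were added after values were seen. Other scalings, pseudocounts, filters, rounding, a length trend and leaving out each library were tried. The comparison code was tested on simulated data.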

Additional observations from a re-analysis of the deposited data

How the results depend on the processing

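No paired analysis was possible because the result comes from no test and the replicate numbers of the 2 experiments are unrelated. A filter of at least 10 FPKM kept 4819 names, of which 1649 were higher and 1601 lower. Lists with a median below -1 were 3 under that filter and 3 under equal summed FPKM, against 1. The median of the sperm and testis markers turned from 1.45 to -0.71 under the filter of at least 10 FPKM. With the trend on length removed, *RPS3* turned to -0.080 and *LSM6* to -0.45. The cause of these changes was not tested. The mean correlation of NC with untreated 8-cell, 4-cell and MII libraries was 0.76 for each without a filter, and by Pearson it was 0.54 with 4-cell and 0.56 with MII libraries. Genes higher at 4 cells had a median of -0.60 at a 4-fold limit, and genes lower at 4 cells 3.40. Leaving out one library changed the higher count to between 3399 and 3811 and the lower count to between 2807 and 3146. The other alternatives kept both counts within 1.5 times. In the untreated libraries, 3 fragments per kilobase correspond to 0.086 to 0.13 rescaled FPKM, counting error only. No such limit can be given for NC.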

Other observations

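Names were also grouped by the letters their symbols start with, for the 56 groups of at least 15 kept names, a rule set after the values were seen. The counts below stand against 31.3% higher and 25.5% lower over all names. The trend on gene length was not removed for these groups, and the part of length in them was not tested. In 9 groups the median difference was above 1, and in 3 it was below -1. Subunits of the RNA polymerases (POLR) had 17 of 24 names higher in NC and none lower, with a median of 2.03. DEAD-box helicases (DDX) had 17 of 33 higher and 2 lower, and RNA-binding motif proteins (RBM) 15 of 30 higher and 2 lower, with medians of 1.13 and 1.16. Mediator subunits (MED) had 12 of 29 higher and 3 lower, with a median of 0.80.

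On the other side, centrosomal proteins (CEP) had 15 of 29 names lower in NC and none higher, with a median of -1.14. Tetratricopeptide repeat proteins (TTC) had 11 of 20 lower and none higher. Sorting nexins (SNX), which shape endosomal membranes, had 12 of 24 lower and 3 higher, and vacuolar sorting proteins (VPS) 11 of 26 lower and 2 higher. Zinc finger proteins (ZNF) were near the whole, with 40 higher and 33 lower of 147 and a median of -0.10.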
